A study of Homo sapiens with 9 samples.

Results

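The facilitative glucose transporters are the SLC2A (GLUT) family of membrane proteins, and their RNA was followed here in the human liposarcoma line LiSa-2 after an enzyme that cuts hyaluronan, a sugar polymer of the matrix around cells, was added. The set holds 9 genes (SLC2A1, SLC2A3, SLC2A4, SLC2A5, SLC2A6, SLC2A8, SLC2A10, SLC2A12 and SLC2A13) of 19775 on the array, and was taken as every probe set annotated with exactly 1 of these symbols, which gave 21 of 41091 probe sets. Cells grown on plates in DMEM/F12 medium with bovine serum and antibiotics received bovine testicular hyaluronidase (HAase) at 400 µg/mL for 24 h, the same dose for 6 h, or phosphate-buffered saline (PBS). The PBS cells were all harvested at 24 h, so in the comparison of 6 h with PBS the treatment and the time of harvest cannot be told apart. Nor can the length of treatment and the time of harvest in the comparison of 24 h with 6 h. Each of the 3 groups had 3 samples, and each sample was 1 Affymetrix Human Genome U133 Plus 2.0 array, so 9 arrays in all. All samples came from the same line, and no sample received inactivated enzyme, so each comparison with PBS is of an enzyme preparation that also cleaves chondroitin sulfate.

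GLUT proteins let hexoses cross membranes down their concentration gradient, without an energy source of their own. Glucose that enters is trapped by hexokinase, so the number of transporters at the cell surface can limit how fast a cell takes up sugar. In fat cells insulin moves SLC2A4 protein from internal vesicles to the surface, while SLC2A1 supplies basal uptake in most cell types. TXNIP, an arrestin-like protein that the study's title names, binds SLC2A1 and SLC2A4 and promotes their internalisation. In RefSeq (GRCh38.p14) SLC2A1 and SLC2A5 lie on chromosome 1, SLC2A3 and SLC2A13 on chromosome 12, SLC2A6 and SLC2A8 on chromosome 9, SLC2A12 on chromosome 6, SLC2A4 on chromosome 17 and SLC2A10 on chromosome 20. The arrays measure RNA, so neither protein nor uptake is covered by the values below.

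Values are linear signal intensities per probe set, and a probe set's level is not comparable with another's. A fold change is the difference of group means of log2(signal + 16), with its standard error (SE) from limma, and understates changes of dim genes. Each gene was represented by its brightest probe set, 13842 genes passed a filter on low signal, and a gene was called at a Benjamini-Hochberg adjusted p under 0.05. The background level of an array is its brightest control probe set for Bacillus subtilis transcripts, between 34.2 and 65.0 over the 9 arrays. Arrays of 1 group correlated at 0.989 to 0.991 over the tested genes, and those of different groups at 0.973 at most. The labels do not say whether samples were separate cultures, so p-values measure the spread between these samples only, and RNA per cell cannot be told apart from the number of cells that carry a transcript.

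SLC2A3 had the largest log2 change of the 8 tested transporters at both times, and others were called in both directions. After 24 h of hyaluronidase SLC2A3 was 3.54-fold and SLC2A13 1.17-fold higher than in PBS, while SLC2A5 was 2.16-fold and SLC2A6 1.95-fold lower. The 24 h calls of SLC2A3 and SLC2A6 held under all 19 alternatives tried. Those of SLC2A5 and SLC2A13 were lost with the mean of a gene's probe sets (limma adjusted p = 0.278 and 0.340). The SLC2A13 call was also lost without 24 h replicate 1 or PBS replicate 1. After 6 h SLC2A3 was 6.90-fold and SLC2A1 1.27-fold higher, while SLC2A12 was 2.22-fold and SLC2A10 1.29-fold lower. Of the 9 genes 8 passed the filter, and SLC2A4 did not. At 24 h 2 of these 8 were called higher and 2 lower, where 17.5% of all genes tested were called higher and 22.9% lower. At 6 h it was again 2 higher and 2 lower, against 15% and 27.4% of all genes tested. The counts of the family are thus near those of the array at large, in which 5593 genes were called at 24 h and 5875 at 6 h. The median log2 fold change of the 8 genes was -0.08 at 24 h and -0.20 at 6 h, beside -0.03 and -0.08 for all genes tested. Both comparisons share the PBS arrays. Of the 4 calls at 6 h only 1 was left without 6 h replicate 1 or without PBS replicate 3, and 2 were left without 6 h replicate 3, PBS replicate 1 or PBS replicate 2.

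**Figure D1:**
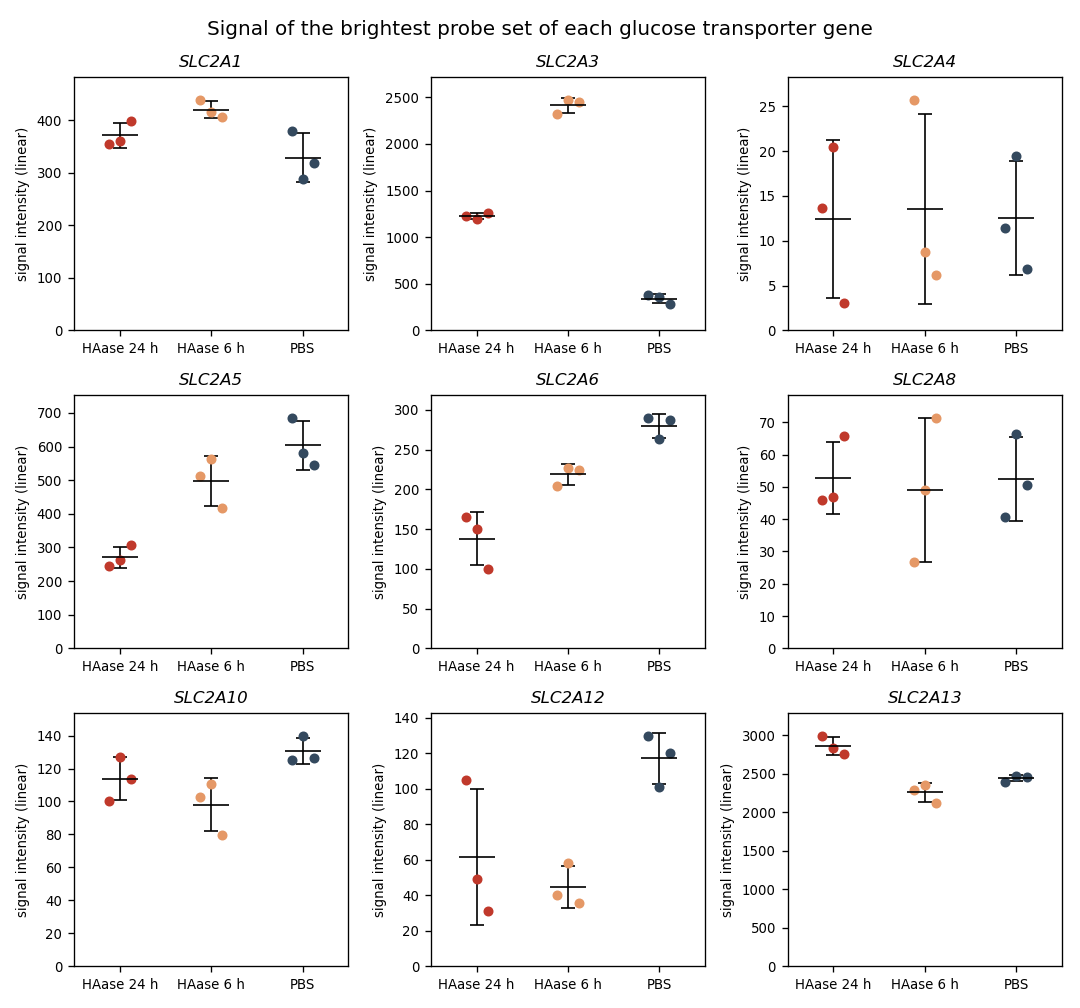
Signal of the brightest probe set of each of the 9 genes (linear vertical axes that start at 0, in arbitrary intensity units and of different range per panel) in the HAase 24 h, HAase 6 h and PBS groups. Points are single arrays, horizontal bars are means and whiskers 1 SD (n = 3). SLC2A3 lies between 1198 and 1262 at 24 h, above its PBS arrays at 285 to 376, whereas SLC2A4 never exceeds 25.7.

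SLC2A3 encodes GLUT3, a high-affinity glucose carrier best known from neurons. Its brightest probe set, 202499_s_at, read 1226, 1198 and 1262 after 24 h of hyaluronidase, 2323, 2469.6 and 2450.4 after 6 h, and 376, 354 and 285 in PBS. The 3 groups did not overlap, with the 6 h arrays highest and the PBS arrays lowest. The log2 fold change was 1.82 ± 0.10 (SE) at 24 h (limma adjusted p = 3.25e-06) and 2.79 ± 0.10 at 6 h (5.51e-07). Between the times SLC2A3 was 1.95-fold lower at 24 h than at 6 h (limma adjusted p = 2.24e-04), a level still above PBS. These SLC2A3 calls held under all 19 alternatives tried.

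The other SLC2A3 probe sets gave the same order of groups. Probe set 202497_x_at averaged 997 ± 50.1 at 24 h, 1397 ± 92.4 at 6 h and 224 ± 43.9 in PBS (SD, n = 3 each). Probe set 202498_s_at averaged 455 ± 81.8 at 24 h, 895 ± 77.7 at 6 h and 138 ± 32.8 in PBS (SD, n = 3 each). Their log2 fold changes against PBS were 2.09 and 1.62 at 24 h and 2.57 and 2.58 at 6 h, with adjusted p-values of at most 3.03e-04 over all 26614 probe sets tested. All 3 were also called lower at 24 h than at 6 h, although 202497_x_at by the smallest amount, a log2 difference of -0.48 ± 0.12 (SE, adjusted p = 0.0263). With no filter on signal, without 24 h replicate 1 or 3, or without any 1 of the 6 h arrays, that difference was no longer called, and its adjusted p was 0.0530 to 0.0836.

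SLC2A14 is a near-identical copy of SLC2A3, and probe sets of this kind cannot tell their transcripts apart. The 2 probe sets annotated with both symbols, outside the set by its rule, averaged 494 ± 63.2 and 557 ± 45.1 at 24 h, 810.2 ± 43.0 and 1212 ± 113 at 6 h, and 158 ± 17.8 and 162 ± 11.6 in PBS (SD, n = 3 each). Every probe set for SLC2A3, alone or with SLC2A14, was thus highest at 6 h and lowest in PBS with no overlap between groups.

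**Figure D2:**
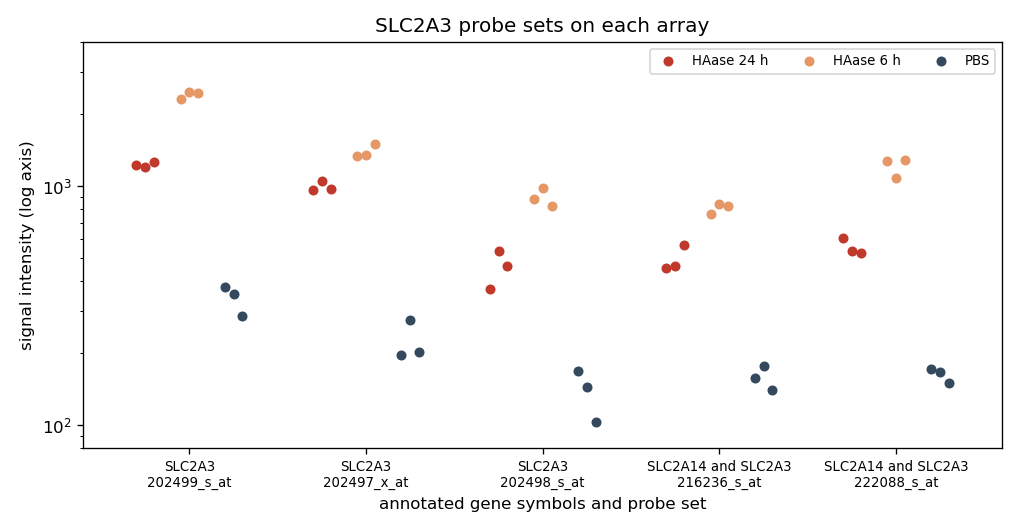
Signal intensity (log axis) on each array of the 3 probe sets annotated with SLC2A3 alone and the 2 annotated with SLC2A14 and SLC2A3. Each point is 1 array, with HAase 24 h, HAase 6 h and PBS from left to right within a probe set. In all 5 the 6 h arrays are highest and the PBS arrays lowest.

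SLC2A1 encodes GLUT1, the basal glucose carrier of most cell types. Probe set 201250_s_at read 354, 361 and 397 at 24 h, 438, 416 and 406 at 6 h, and 379.7, 287 and 319 in PBS. The 6 h arrays lay above all PBS arrays, while the 24 h arrays overlapped with PBS through PBS replicate 1. Its log2 fold change was 0.17 ± 0.10 (SE) at 24 h (adjusted p = 0.211) and 0.35 ± 0.10 at 6 h (0.0244). The 6 h call was small and fragile. Without 6 h replicate 1 or 2 or PBS replicate 2 or 3 its limma adjusted p lay between 0.0569 and 0.0727. With the mean of both probe sets the adjusted p was 0.321. When any 1 array was left out, the 6 h log2 fold change stayed between 0.26 and 0.45. At 24 h the call appeared only without PBS replicate 1 (0.28, adjusted p = 0.0335). The other SLC2A1 probe set, 201249_at, was above background on 1 of the 9 arrays, with signals from 6.13 to 38.6, and failed the filter.

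SLC2A4 encodes GLUT4, the insulin-responsive carrier of fat and muscle cells. Its only probe set read 13.6, 20.5 and 3.07 at 24 h, 25.7, 8.75 and 6.13 at 6 h, and 11.4, 19.4 and 6.88 in PBS. All 9 values lay below the background level of their arrays, so the gene has only an upper bound here and no fold change is given. Other fat cell genes differed in whether they could be detected in the same arrays. The fatty acid carrier FABP4 and the adipogenic factor PPARG were above background on all 9 arrays. So was the lipid droplet gene PLIN1, which averaged 118 ± 27.8 at 24 h, 766 ± 39.9 at 6 h and 1749 ± 110 in PBS (SD, n = 3 each). The adipokine gene ADIPOQ was above background on all 6 h and PBS arrays but on 1 of 3 at 24 h, and LEP, which encodes leptin, was below it on all 9.

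SLC2A5 encodes GLUT5, a fructose carrier. Probe set 204430_s_at read 244, 262 and 306 at 24 h, 513, 562 and 416 at 6 h, and 684, 582 and 544 in PBS. The 24 h arrays lay below all others, while the 6 h and PBS arrays overlapped. On the log2 scale the change was -1.11 ± 0.14 (SE) at 24 h (adjusted p = 3.83e-04) and -0.28 ± 0.14 at 6 h (0.145), and the 24 h level was also 1.78-fold below the 6 h level (0.00255). Of the 4 SLC2A5 probe sets this was the only one called.

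The other SLC2A5 probe sets did not follow. Probe set 204429_s_at, above background on every array, averaged 155 ± 15.8 at 24 h, 149 ± 22.8 at 6 h and 138 ± 17.0 in PBS (SD, n = 3 each). Its change at 24 h was 0.15 ± 0.13 (SE) on the log2 scale (adjusted p = 0.407). Probe sets 242525_at and 230705_at were dim, with group means between 27.8 and 51.3. Of these, 230705_at had higher values at 24 h than in PBS on every array, but its PBS arrays were all below background, so the difference is known only as a bound, at least 1.04-fold higher at 24 h. It was not called (adjusted p = 0.0575), although 4 of 17 alternatives called it. Averaged over its 4 probe sets, SLC2A5 gave -0.14 at 24 h (adjusted p = 0.278) and -0.16 between 24 h and 6 h (0.257).

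SLC2A6 encodes GLUT6, a glucose carrier of intracellular membranes. Its only probe set, 220091_at, read 165, 150.0 and 99.9 at 24 h, 204, 227 and 225 at 6 h, and 289.6, 263 and 288 in PBS. The 3 groups did not overlap, with the 24 h arrays lowest and the PBS arrays highest. SLC2A6 changed by -0.97 ± 0.15 (SE) on the log2 scale at 24 h (adjusted p = 0.00155), and its difference at 6 h was -0.33 ± 0.15 (0.120). The difference of 24 h from 6 h, -0.63 ± 0.15, was called (limma adjusted p = 0.0158). The 6 h difference from PBS was called when the 24 h arrays were left out of the fit (0.0125) and without 24 h replicate 3 (0.00831), the array of lowest SLC2A6 signal.

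The 250 bases before the annotated start of SLC2A5, SLC2A6 and SLC2A13 are shown because these were called at 24 h and have a promoter in the RefSeq table used (GRCh38.p14, which held 7 of the 9 genes). They cover chr1:9069636-9069885 and chr9:133479100-133479349 and chr12:40106082-40106331, all on the minus strand, are written 5′ to 3′ along the gene, and end at the base before the start. Capitals mark every match, on either strand, to ACGTG (the core of a hypoxia response element), CACGTG (an E-box, which contains that core), TGANTCA (an AP-1 site), GGGCGG (a GC box) or CCAAT.
SLC2A5: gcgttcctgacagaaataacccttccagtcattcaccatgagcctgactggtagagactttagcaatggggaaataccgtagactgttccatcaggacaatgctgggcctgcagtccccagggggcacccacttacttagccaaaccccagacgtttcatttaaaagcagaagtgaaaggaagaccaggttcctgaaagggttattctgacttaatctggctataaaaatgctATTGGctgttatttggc
SLC2A6: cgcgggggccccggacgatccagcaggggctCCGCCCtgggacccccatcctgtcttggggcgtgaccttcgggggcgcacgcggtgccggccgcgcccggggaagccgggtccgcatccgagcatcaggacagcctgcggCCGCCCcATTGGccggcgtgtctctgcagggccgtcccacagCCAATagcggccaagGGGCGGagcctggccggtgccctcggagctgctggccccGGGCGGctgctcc
SLC2A13: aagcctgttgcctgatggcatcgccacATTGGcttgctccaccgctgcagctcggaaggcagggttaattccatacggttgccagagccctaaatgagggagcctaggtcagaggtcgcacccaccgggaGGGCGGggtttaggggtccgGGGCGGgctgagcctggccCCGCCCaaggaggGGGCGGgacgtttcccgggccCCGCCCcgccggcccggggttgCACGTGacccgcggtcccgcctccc
The SLC2A5 window, whose gene fell on 1 probe set, held 1 CCAAT match, 17 bases before the start, and no GC box. The SLC2A6 window held 4 GC boxes and 2 CCAAT matches. The SLC2A13 window held 5 GC boxes, 1 CCAAT match and 1 E-box, with the hypoxia core inside it on both strands, that begins 25 bases before the start. Of 35116 promoter windows of this length, 42.6% held a GC box, 32% a CCAAT match, 18.5% the hypoxia core, 6.34% an E-box and 6.57% an AP-1 match. An AP-1 match was present in 1 of the 7 windows, that of SLC2A12. SLC2A3 and SLC2A4 had no promoter window and were not searched. A match of letters is not a binding site, and a window without one says nothing of more distant sequence.

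SLC2A8 encodes GLUT8, an intracellular hexose carrier. Probe set 218985_at read 45.9, 46.9 and 65.8 at 24 h, 26.8, 49.1 and 71.3 at 6 h, and 40.6, 66.4 and 50.6 in PBS. The groups overlapped throughout, and 5 of the 9 values were above the background level of their arrays. Its log2 fold change was 0.01 ± 0.26 (SE) at 24 h (adjusted p = 0.979) and -0.12 ± 0.26 at 6 h (0.756), errors that would hide a change of the size seen for SLC2A1. The dimmer probe set 239426_at averaged 46.7 ± 7.10 at 24 h, 35.8 ± 4.18 at 6 h and 51.6 ± 15.5 in PBS (SD, n = 3 each). Its 6 h arrays lay below all PBS arrays, but the difference of -0.37 was not called (adjusted p = 0.123).

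SLC2A10 encodes GLUT10, whose loss causes arterial tortuosity syndrome in people. Its only probe set, 221024_s_at, read 101, 127 and 114 at 24 h, 103, 111 and 79.9 at 6 h, and 125, 139.6 and 126 in PBS. The 6 h arrays lay below all PBS arrays, and the 24 h arrays overlapped with both. Against PBS the log2 fold change was -0.18 ± 0.12 (SE) at 24 h (adjusted p = 0.281) and -0.37 ± 0.12 at 6 h (0.0374). The 6 h call was lost under 10 of 18 alternatives, with limma adjusted p between 0.0521 and 0.111. Among them were leaving out 24 h replicate 3, 6 h replicate 1 or 3, or any PBS array. When any 1 array was left out, the 6 h log2 fold change stayed between -0.45 and -0.25.

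SLC2A12 encodes GLUT12, which like SLC2A4 responds to insulin in muscle. Probe set 244353_s_at read 105, 49.1 and 31.3 at 24 h, 40.3, 57.9 and 35.4 at 6 h, and 129.5, 101 and 120.3 in PBS. The 6 h arrays lay below PBS without overlap, and 2 of 3 were above background, so the size of the fall is uncertain. At 24 h replicate 1 lay within the PBS range and the other 2 arrays below it. SLC2A12 differed from PBS by -0.88 ± 0.32 (SE) on the log2 scale at 24 h (adjusted p = 0.0587) and by -1.15 ± 0.32 at 6 h (0.0209). At 24 h the gene was called without 24 h replicate 1 (-1.25, adjusted p = 0.00319) and with equal array medians, a pseudocount of 64, the mean of both probe sets or a trended and robust variance (0.0354 to 0.0495). At 6 h the call was lost without 6 h replicate 1 or 3 or PBS replicate 1 or 3. The limma adjusted p then lay between 0.0570 and 0.0666. When any 1 array was left out, the 6 h log2 fold change stayed between -1.30 and -1.04. The dimmer probe set 235050_at, which failed the filter, averaged 22.5 ± 17.5 at 24 h, 24.2 ± 4.89 at 6 h and 48.5 ± 11.1 in PBS (SD, n = 3 each), with 1 PBS array alone above background.

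SLC2A13 encodes HMIT, which carries myo-inositol with protons and so differs from the sugar carriers of the family. Probe set 227176_at read 2988, 2835 and 2751 at 24 h, 2292, 2359 and 2124 at 6 h, and 2397, 2471 and 2456 in PBS. The groups did not overlap: the 24 h arrays were highest and the 6 h arrays lowest. Log2 fold changes were 0.23 ± 0.06 (SE) at 24 h (adjusted p = 0.0161), -0.11 ± 0.06 at 6 h (0.160) and 0.34 ± 0.06 between 24 h and 6 h (0.00330). The 24 h call was lost without 24 h replicate 1 (0.0551) or PBS replicate 1 (0.0539) and for the mean of the gene's 5 probe sets (0.340), with which the difference between the times was gone as well (-0.0075, 0.972).

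The other SLC2A13 probe sets were much dimmer and none was called. Probe set 1552695_a_at averaged 141 ± 22.8 at 24 h, 170 ± 3.39 at 6 h and 147 ± 13.8 in PBS (SD, n = 3 each), with the 6 h arrays above the rest, where 227176_at had them lowest. Between 24 h and 6 h it was called without 24 h replicate 1 (-0.36, limma adjusted p = 0.0431). The other 3 had group means between 16.9 and 74.6.

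Between 24 h and 6 h of hyaluronidase, 3 of the 8 tested genes were called lower at 24 h (SLC2A3, SLC2A5 and SLC2A6) and 1 higher (SLC2A13). Of all genes tested 13.3% were called lower and 19.8% higher. No PBS cells were harvested at 6 h, so length of treatment and time of harvest cannot be told apart here. The 3 that were lower at 24 h differ in what PBS showed: SLC2A3 remained above its PBS level, whereas SLC2A5 and SLC2A6 were below theirs. Counted by probe set, 17 of 21 passed the filter. At 24 h 6 of them were called against PBS (4 higher, 3 of those being SLC2A3) where 33.4% of all 26614 probe sets tested were called. At 6 h 6 were called (4 higher, again with 3 for SLC2A3), beside 33.4%, and between the times 6 were called, beside 24.9%.

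**Figure D3:**
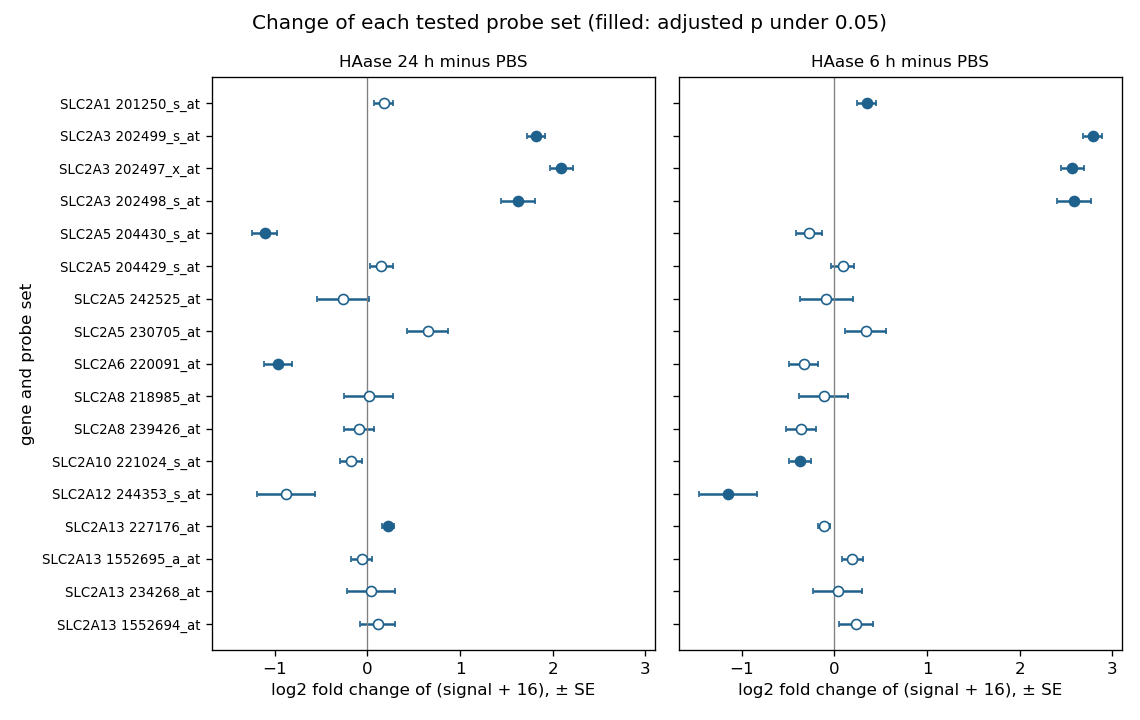
Log2 fold change of signal + 16 (horizontal axis, with SE bars) of the 17 tested probe sets of the family, for HAase 24 h minus PBS (left) and HAase 6 h minus PBS (right). Filled points had an adjusted p under 0.05. The 3 SLC2A3 probe sets lie between 1.62 and 2.79, while the 4 SLC2A5 probe sets lie on both sides of 0.

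The genes whose 9 values ran closest to those of each called transporter were found by the root mean square (RMS) difference of log2 values, each gene's PBS mean being set to 0. For SLC2A3 these were RELB, an NF-kappaB subunit gene (RMS difference 0.14), FGF2, a fibroblast growth factor gene (0.18), and SDC4, a cell surface proteoglycan gene (0.19). For SLC2A5 they were CAMK1, HSPB8 and IFI6 (0.11 to 0.14), and for SLC2A6 RBM47, SLC36A1 and NAAA (0.12 to 0.13). For SLC2A12 they were CCDC18, the clock gene CRY2 and DNM3OS (0.20 to 0.29). SLC2A1, SLC2A10 and SLC2A13, which changed little, had close neighbours at 0.05 to 0.08: RNF145, RNF126 and GSK3A for SLC2A1, PYGO1, TMCO6 and IFT27 for SLC2A10, and TRIP13, TMEM123 and PPWD1 for SLC2A13. These are descriptions over 9 arrays in 3 groups.

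Genes that regulate the transporters or handle the sugar they bring in moved in both directions. The shares of called genes in each list below are to be read against the 17.5% called higher and 22.9% called lower of all genes tested at 24 h, and the 15% and 27.4% at 6 h. TXNIP averaged 12367 at 24 h, 8440 at 6 h and 10799 in PBS, called higher at 24 h (log2 fold change 0.19 ± 0.06 SE, adjusted p = 0.0280) and lower at 6 h (-0.36 ± 0.06, 0.00169). The 6 h samples thus had the lowest TXNIP and the highest SLC2A3, and a link between them was not tested. ARRDC4, its relative, which also restrains glucose uptake, was 0.21 ± 0.05 higher on the log2 scale at 24 h (0.00994) and was not called at 6 h (0.01, 0.912). Between 24 h and 6 h TXNIP differed by 0.55 (2.71e-04) and ARRDC4 by 0.20 (0.0151). Of 10 tested genes of the arrestin and glucose-sensing list 5 were called higher (50%) and 2 lower (20%) at 24 h, and 3 higher (30%) and 2 lower (20%) at 6 h. MLXIPL, whose product (ChREBP) switches genes on when glucose is plentiful, was 3.18-fold lower at 24 h, to a level above background on 2 of 3 arrays, and 1.67-fold lower at 6 h. ARRDC3 was 1.51-fold lower and ARRDC2 1.46-fold higher at 24 h, and ARRB1, a beta-arrestin gene, was 2.06-fold and ARRDC2 1.93-fold higher at 6 h.

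Of 32 tested trafficking genes, which sort and dock transporter vesicles, 7 were called higher (21.9%) and 8 lower (25%) at 24 h, near the shares of all genes (17.5% and 22.9%), and 3 higher (9.38%) and 7 lower (21.9%) at 6 h, beside 15% and 27.4%. TBC1D4 (AS160), the Akt substrate that holds SLC2A4 vesicles back, was 1.42-fold lower at 24 h and 2.43-fold lower at 6 h (adjusted p = 0.0121 and 1.11e-04). GGA2, an adaptor of the Golgi sorting route, was 1.84-fold lower at 24 h and 1.57-fold lower at 6 h. STOM (stomatin), which binds SLC2A1 and alters its transport, was 1.71-fold lower at 24 h but 1.48-fold higher at 6 h (adjusted p = 2.02e-04 and 0.00118). Of 20 tested genes of insulin and AMPK signalling 2 were called higher (10%) and 5 lower (25%) at 24 h, beside 17.5% and 22.9% of all genes, and 3 higher (15%) and 8 lower (40%) at 6 h, beside 15% and 27.4%. At 24 h the insulin receptor substrate gene IRS2 was 1.61-fold higher, the ubiquitin ligase gene CBL 1.41-fold higher and the PI3K regulatory subunit gene PIK3R1 1.60-fold lower. At 6 h the PI3K catalytic subunit gene PIK3CB was 1.84-fold lower. STK11, the kinase upstream of AMPK, was 1.80-fold lower, and GRB10, an adaptor of the insulin receptor, 1.72-fold lower.

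Of 18 tested genes that take hexoses into metabolism, 4 were called higher (22.2%) and 3 lower (16.7%) at 24 h, and 2 higher (11.1%) and 4 lower (22.2%) at 6 h, near the shares of all genes (17.5% and 22.9% at 24 h, 15% and 27.4% at 6 h). The hexokinase gene HK1 was 2.18-fold higher at 24 h and 1.61-fold higher at 6 h (adjusted p = 1.56e-06 and 3.41e-05). HKDC1, a related hexokinase gene, was at least 1.73-fold higher at 24 h, since all its PBS arrays were below background. PGM1 (phosphoglucomutase), which links glucose to glycogen, was 2.13-fold lower at 24 h and 1.55-fold lower at 6 h. KHK (fructokinase), which phosphorylates fructose, was 2.47-fold lower at 6 h, to a level above background on 1 of 3 arrays. Of 10 tested other sugar carriers 1 was called lower (10%) at 24 h and 4 (40%) at 6 h, beside 22.9% and 27.4% of all genes. None was called higher, beside 17.5% and 15%. The myo-inositol carrier gene SLC5A3 was 1.32-fold lower at 24 h and 1.49-fold lower at 6 h, SLC37A4 (the glucose-6-phosphate carrier of the endoplasmic reticulum) 2.14-fold lower at 6 h, and SLC5A2 (a sodium-coupled glucose carrier of the kidney) 1.91-fold lower at 6 h, to a level above background on 1 of 3 arrays.

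Among 34 tested transcription factor genes known from transporter promoters, 10 were called higher (29.4%) and 12 lower (35.3%) at 24 h, beside 17.5% and 22.9% of all genes, and 13 each way (38.2%) at 6 h, beside 15% and 27.4%. The adipogenic factor gene CEBPA was 6.98-fold lower at 24 h and 8.81-fold lower at 6 h, and the coactivator gene PPARGC1A 5.34-fold and 5.48-fold lower. FOSL1, an AP-1 subunit gene, was 6.77-fold higher at 24 h and 6.10-fold higher at 6 h. All 6 adjusted p-values were at most 1.82e-06. The median log2 fold change of the 6 lists lay between -0.03 and 0.18 at 24 h and between -0.17 and 0.11 at 6 h, where the medians of all genes tested were -0.03 and -0.08.

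**Figure D4:**
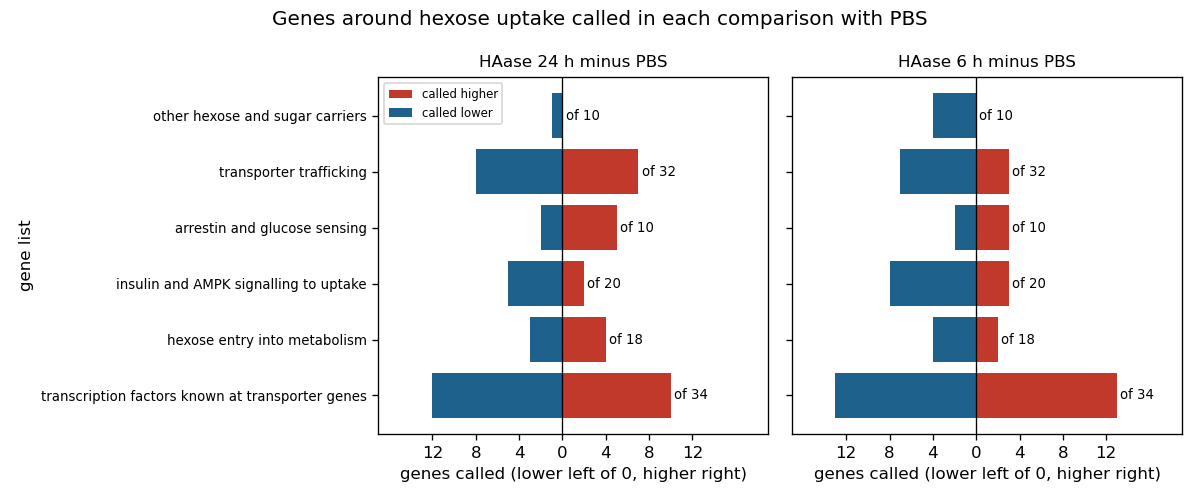
Number of genes called higher (right of 0) and lower (left of 0) than in PBS in 6 lists of genes around hexose uptake, for HAase 24 h (left panel) and HAase 6 h (right panel). The number tested stands beside each bar. In every list but other sugar carriers, genes were called in both directions at both times.

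Marker lists moved with the groups, and their part in the transporter results was not tested. The summed signal of 11 liposarcoma and adipocyte markers ranged from 38881 to 43629.9 at 24 h, 54089 to 56549 at 6 h and 65401 to 67654 in PBS. FABP4 was the largest part, with means of 26097 at 24 h, 31931 at 6 h and 33295 in PBS. CEBPA did not keep the order of the sums, with means of 1002 at 24 h, 794 at 6 h and 7089 in PBS. Of the 11 markers 9, 10 and 9 were above background on all arrays of the 24 h, 6 h and PBS groups. MDM2 and CDK4, amplified in many liposarcomas, were above it on all 9 arrays, while LEP was below it on all. HMGA2, often amplified beside them, went against the sum of the list: it averaged 1643 ± 70.9 at 24 h and 725 ± 29.5 at 6 h, above background on all arrays, against 51.0 ± 8.52 in PBS, above it on 1 of 3 (SD, n = 3 each). For 6 leukocyte markers, 3 of them above background on all arrays of each group, the sums were 496 to 513 at 24 h, 301 to 356 at 6 h and 249.6 to 292 in PBS, with PTPRC, which defines leukocytes, below background on all arrays. For 5 endothelial markers, of which PECAM1 alone was above background on all arrays, they were 420.3 to 442 at 24 h, 374 to 427 at 6 h and 277 to 342 in PBS, with CDH5 and TEK below background throughout. For 7 epithelial markers they were 85.8 to 199 at 24 h, 189.6 to 251 at 6 h and 334 to 588 in PBS, with EPCAM and CDH1 below background on all arrays and KRT5 and KRT14 above it on all arrays at 6 h and in PBS. For 8 skeletal muscle markers they were 151 to 183 at 24 h, 143 to 163 at 6 h and 151 to 233 in PBS, with MYOD1, MYOG and CKM below background on all arrays. MB (myoglobin) was above it on 2 of 3 arrays at 24 h, 1 of 3 at 6 h and 3 of 3 in PBS, where it averaged 85.1 ± 17.0 (SD, n = 3). For 5 neural markers they were 18684 to 21174 at 24 h, 19659 to 20681 at 6 h and 19269.9 to 19978 in PBS, mostly from TUBB3. For the 3 erythroid markers on the array they were 63.0 to 139 at 24 h, 118 to 176 at 6 h and 79.8 to 135 in PBS, mostly from HBB. The log2 difference of 3′ from 5′ GAPDH control probe sets is a sign of RNA quality. It had medians of -0.09 at 24 h, -0.05 at 6 h and 0.01 in PBS. The 24 h arrays, at most -0.023, lay below all PBS arrays, at least -0.017, while the 6 h arrays overlapped with PBS. For ACTB the medians of the same difference were 1.57 at 24 h, 1.46 at 6 h and 1.68 in PBS, with the 6 h arrays below all PBS arrays, so signs of RNA quality also moved with the groups, and their part in the results was not tested.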

How the data were processed

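Expression was measured in 9 LiSa-2 samples on Affymetrix arrays. The deposited values are linear signal intensities, which the authors took from CHP files, per the labels' design text. How probes were summarised is not given in the sources used here. Intensities were scaled per array before deposit, since the mean after trimming 2% at each end was 500.07 to 500.075 on every array. The number of arrays limits the precision.

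Of 54675 probe sets 41091 had 1 gene symbol in the platform annotation, 1801 several, 11721 none, and 62 were controls. Group means of log2(signal + 16) were compared with limma 3.58.1 in R 4.3.3, with all 9 arrays in 1 fit, 3 groups and no covariate. Each gene was its probe set of highest mean, tested above the 30th percentile of gene means (a signal of 34.7), and probe sets were tested in a second fit at the same signal, with Benjamini-Hochberg adjustment over all features of a fit. A group with no array above the brightest of 27 Bacillus subtilis control probe sets has only an upper bound, and its fold change is a bound against that level. The fit was tested on simulated data. Figures were drawn with matplotlib 3.10.9.

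Named genes were the 9 members, TXNIP, ARRDC4, up to 3 called genes per list and comparison with PBS by size, and the 3 genes nearest each called member. The members and lists were chosen with earlier results of these data known. The alternatives were quantile normalization, equal medians, pseudocounts of 1 and 64, no filter, the 50th percentile, the mean of a gene's probe sets, a trended and robust variance, only the 6 arrays compared, the replicate number as a block, and leaving out each array. The files give no scan date or batch. Same-numbered samples did not deviate together (correlations from -0.05 to 0.03, 9 pairs), so the numbers were not used as pairs.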

Additional observations from a re-analysis of the deposited data

Results flagged for a closer look

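The effects of 24 h and 6 h of hyaluronidase, both against the same PBS arrays, differed for 4 transporter genes. The shared PBS mean cancels, so this is the comparison of 24 h with 6 h given above and not a further result. Length of treatment and time of harvest cannot be told apart in it. The effect at 24 h minus that at 6 h was -0.97 for SLC2A3 and -0.84 for SLC2A5 on the log2 scale. It was -0.63 for SLC2A6 and 0.34 for SLC2A13. For SLC2A5 and SLC2A13 the difference rests on the brightest probe set. With the mean of a gene's probe sets it was -0.16 for SLC2A5 (limma adjusted p = 0.257) and -0.0075 for SLC2A13 (0.972). Limma adjusted p-values were at most 0.0158, where 13.3% of all genes tested were called lower and 19.8% higher between the times. The 4 were called in this same comparison, so the lack of overlap between their arrays of the 2 times is no further result. The arrays of SLC2A1 did not overlap either, although it was not called (limma adjusted p = 0.230). How many of all genes had no overlap is not given here. Groups of 3 arrays were not tested for outlying samples.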

How the results depend on the processing

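Of the alternatives tried, all 19 kept the SLC2A3 calls in the 3 comparisons and the SLC2A6 calls at 24 h and between the times. Genes called ranged from 4499 to 5998 at 24 h, 4582 to 6277 at 6 h and 3238 to 5057 between the times. Transporter genes called at 6 h numbered 2 with the filter at the 50th percentile, which left SLC2A8, SLC2A10 and SLC2A12 untested. They numbered 1 to 4 on leaving out 1 array. Those called between the times numbered 2 with the mean of a gene's probe sets. With that mean SLC2A5 was at -0.14 at 24 h and turned to 0.016 at 6 h, SLC2A13 turned to 0.16 at 6 h and -0.0075 between the times, and SLC2A8 to -0.040 at 24 h, on the log2 scale. Values near 0 also turned under quantile normalization (SLC2A8 at 24 h, -0.0013, and SLC2A13 probe set 1552695_a_at at 24 h, 0.0032) and with equal array medians (234268_at between the times, -0.00021). Beyond the genes that the 50th percentile filter left untested, the cause of these changes was not tested. With the replicate number as a block (a replicate block, although the numbers share no pairing), 5188 genes were called at 24 h, 5447 at 6 h and 4122 between the times, with 4 transporters in each, and no transporter call changed. Leaving out 1 array turned values that were never called: SLC2A8 ranged from -0.12 to 0.15 at 24 h, -0.36 to 0.15 at 6 h and -0.14 to 0.37 between the times, and SLC2A12 from -0.11 to 0.57 between the times. Probe set 239426_at of SLC2A8 ranged from -0.20 to 0.089 at 24 h. For SLC2A13, 1552695_a_at ranged from -0.17 to 0.042 at 24 h, 234268_at from -0.27 to 0.23 at 24 h, -0.28 to 0.23 at 6 h and -0.11 to 0.16 between the times, and 1552694_at from -0.038 to 0.34 at 24 h and -0.27 to 0.10 between the times. For SLC2A5, 204429_s_at ranged from -0.021 to 0.18 at 6 h and -0.014 to 0.17 between the times, and 242525_at from -0.28 to 0.24 at 6 h and -0.50 to 0.014 between the times. Signal over background limits SLC2A4, SLC2A8, SLC2A12 and the dim probe sets of SLC2A1, SLC2A5 and SLC2A13.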
